A study of Mus musculus with 24 samples.

Results

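Pyruvate dehydrogenase, the mitochondrial enzyme complex that turns pyruvate into acetyl-CoA, was followed here through the genes of its subunits, the kinases that switch it off and the carrier that feeds it. The 10 genes were chosen by name: the subunits Pdha1, Pdhb, Dlat and Dld, the kinases Pdk1, Pdk2, Pdk3 and Pdk4, and the mitochondrial pyruvate carrier genes Mpc1 and Mpc2. A probe was named for 8 of them, among 19053 named genes in all. No probe was named for Mpc1 or Mpc2, which were not analysed here. The 8 measured genes had 12 probes, of which Pdhb had 3, Dld and Pdk1 had 2 each, and the other 5 genes had 1 each.

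Brown adipose tissue (BAT) and, separately, white adipose tissue (WAT) were taken from C57Bl/6J male mice on 3 diets and measured on Illumina expression arrays. The diets were a high-fat diet with EPA/DHA (eicosapentaenoic and docosahexaenoic acid, the long-chain omega-3 fatty acids of fish oil), a high-fat diet with corn oil, and a low-fat diet. Each of the 6 groups held 4 arrays, 1 for each of 4 mice per diet, and the mice had been picked to represent their diet group in body weight and plasma lipids. No age and no WAT depot is stated, the extraction text names skeletal muscle although the tissue labels name adipose tissue, and nothing says whether a BAT and a WAT array with the same number came from 1 mouse.

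The complex stands between glycolysis and the citric acid cycle, and its product also feeds fatty acid synthesis. Pdha1 and Pdhb encode the alpha and beta chains of the pyruvate-decarboxylating enzyme, Dlat the lipoyl-bearing acetyltransferase core, and Dld the dihydrolipoamide dehydrogenase that related complexes share. The kinases phosphorylate the alpha chain and so stop pyruvate oxidation, which spares glucose when fatty acids are burned. In many tissues Pdk4 is known as a fasting-induced target of PPAR receptors, and Pdk1 as a target of the hypoxia factor HIF-1. Brown fat burns both glucose and fatty acids for heat, while white fat uses pyruvate largely for lipid synthesis and glycerol formation.

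The upstream sequences of 4 genes are shown because Pdha1, Dlat and Pdk1 were higher with EPA/DHA than with corn oil in WAT and Pdk4 had the largest tissue difference of the 8 genes. Pdhb, also higher there, is not shown because its whole window, chr14:8172993-8173242, lies inside its longer gene model, which ends at 8173303. The Pdk1 window also reaches into its gene model, which begins at 71873215, but only with its last bases. Each is the 250 bases before the annotated start, on the gene's own strand, from RefSeq (GRCm38.p6). They lie at chrX:160138431-160138680 on the minus strand (Pdha1), chr9:50659781-50660030 on the minus strand (Dlat), chr2:71872974-71873223 on the plus strand (Pdk1, the first of its 2 annotated starts) and chr6:5496279-5496528 on the minus strand (Pdk4). Capitals mark a GC box in Dlat and Pdk1 and a CCAAT box in Pdk4.
Pdha1: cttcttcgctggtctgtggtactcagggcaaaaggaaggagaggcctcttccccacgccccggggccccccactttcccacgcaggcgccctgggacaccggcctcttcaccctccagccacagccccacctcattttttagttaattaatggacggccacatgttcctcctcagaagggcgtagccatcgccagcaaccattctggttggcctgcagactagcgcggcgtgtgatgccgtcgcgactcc
Dlat: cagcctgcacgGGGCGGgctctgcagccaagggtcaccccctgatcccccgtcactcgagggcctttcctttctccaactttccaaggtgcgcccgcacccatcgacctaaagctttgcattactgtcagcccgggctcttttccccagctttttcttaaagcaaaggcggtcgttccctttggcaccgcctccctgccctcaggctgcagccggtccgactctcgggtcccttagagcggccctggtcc
Pdk1: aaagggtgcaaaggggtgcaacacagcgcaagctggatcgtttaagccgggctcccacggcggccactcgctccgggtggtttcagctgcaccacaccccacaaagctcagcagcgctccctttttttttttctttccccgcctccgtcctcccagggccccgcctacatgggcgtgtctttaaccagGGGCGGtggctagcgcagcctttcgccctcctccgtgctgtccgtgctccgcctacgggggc
Pdk4: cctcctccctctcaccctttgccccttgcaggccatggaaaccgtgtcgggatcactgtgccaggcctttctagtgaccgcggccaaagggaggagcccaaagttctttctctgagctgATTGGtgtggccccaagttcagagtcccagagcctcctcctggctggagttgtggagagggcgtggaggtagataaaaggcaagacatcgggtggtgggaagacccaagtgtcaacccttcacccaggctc

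Both strands of these windows were searched for AAGGTCA (the extended half-site of estrogen-related receptors), CCGGAAG (ETS factors), ACGTG (HIF), GTAAACA (FOXO), CCAAT (the CCAAT box) and GGGCGG (the GC box). Dlat held GGGCGG from position -239 to -234 and Pdk1 from -62 to -57, counted from the annotated start, and 32.7% of all 32851 promoter windows of this length hold that motif. Pdk4 held ATTGG, the reverse strand of CCAAT, from -131 to -127, and CCAAT was present in 33.8% of all windows. No searched motif was found in the Pdha1 window. The Pdhb window, not shown, was searched too and held more matches. CCAAT, on the reverse strand, began there at -101, -60 and -12, GGGCGG at -214 and -130, and ACGTG, on the reverse strand, at -248. The shares over all windows were 16.6% for ACGTG, 6.91% for CCGGAAG, 4.08% for AAGGTCA and 3.17% for GTAAACA. The windows differed in base composition: Pdha1 held 61.6% G and C with 15 CpG sites, Dlat 62.8% with 15, Pdk1 64.0% with 19 and Pdk4 58.8% with 6. The medians over all windows were 52.4% and 6.

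All values below are the deposited log2 expression values, which ran from 6.95 to 14.79 with a floor near 7, so a probe close to 7 cannot show a fall. These are arrays, so their number sets the precision. Ucp1 and Lep went with the tissue labels. Ucp1, the brown-fat uncoupling protein, was 13.55 to 14.41 in BAT and 7.08 to 10.63 in WAT. Lep, the leptin gene of white fat, was 7.79 to 11.83 in BAT and 13.21 to 14.70 in WAT. Of the same white adipocyte list, Plin1 was higher in BAT on average, at 9.61 to 10.30 against 9.18 to 9.76 in WAT. Hoxc8 lay at the floor in both tissues, and the rest of the list had higher means in WAT. Array 2 of the BAT low-fat group stood apart, with a mean correlation of 0.969 with the other BAT arrays, where every other array had at least 0.983 within its tissue. Skeletal muscle markers varied widely among BAT arrays: the mean of 15 markers ran from 7.82 to 12.35 in BAT, and Ckm, the muscle creatine kinase gene, was 7.54 to 12.09 in BAT and 7.01 to 7.10, at the floor, in WAT. Acta1, the skeletal muscle actin gene of the same list, was 9.12 to 14.46 in BAT and 9.20 to 11.67 in WAT. In such bulk tissue, fewer cells of a type and less RNA per cell cannot be told apart.

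**Figure D1:**
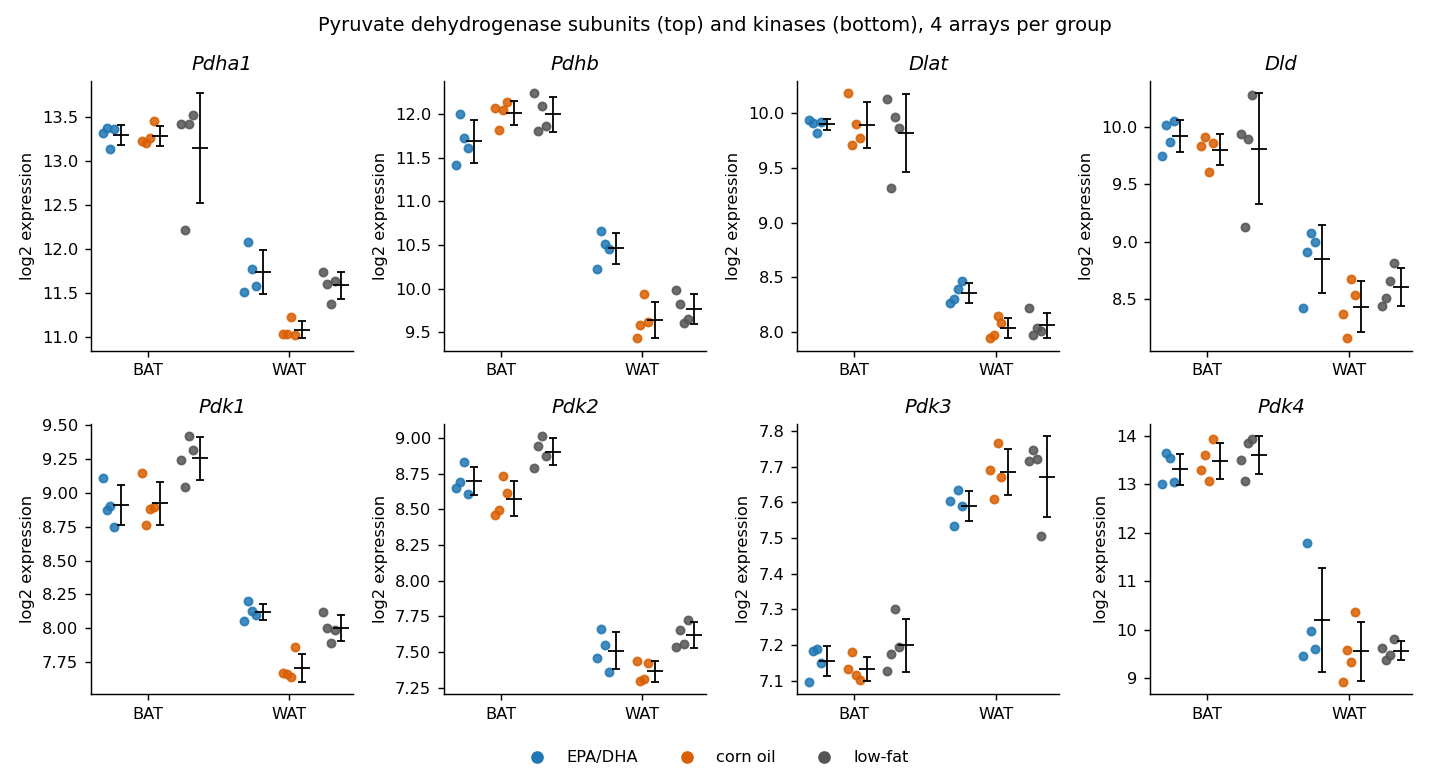
Log2 expression of the 4 subunit genes (top) and the 4 kinase genes (bottom) in every array, BAT left and WAT right, diets by colour; horizontal marks with bars are means ± SD of 4 arrays. Points of BAT lie above those of WAT for every gene but Pdk3, and 1 BAT low-fat array is low for Pdha1 at 12.21.

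All 4 subunit genes were higher in BAT than in WAT. Pdha1 averaged 13.24 ± 0.34 in BAT and 11.46 ± 0.34 in WAT (SD, n = 12 each), a log2 difference of 1.78 ± 0.11 (standard error, as for all differences below), or 3.44-fold. Pdhb was 11.41 to 12.24 in BAT and 9.43 to 10.66 in WAT, 1.94 ± 0.08 higher in BAT. Dlat was 9.31 to 10.18 in BAT and 7.94 to 8.46 in WAT, a difference of 1.72 ± 0.07, and Dld was 9.13 to 10.27 in BAT and 8.16 to 9.07 in WAT, a difference of 1.21 ± 0.10. The lowest BAT array lay above the highest WAT array for each of these genes.

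The kinases did not all follow the subunits. Pdk4 had the largest tissue difference of the 8 genes: its values were 13.01 to 13.95 in BAT and 8.93 to 11.79 in WAT, a log2 difference of 3.68 ± 0.22, or 12.8-fold. Pdk2, a broadly expressed kinase of the complex, was 8.46 to 9.01 in BAT and 7.30 to 7.73 in WAT (1.23 ± 0.04). Pdk1 was 8.75 to 9.42 in BAT and 7.64 to 8.20 in WAT (1.09 ± 0.05). The WAT values of Pdk2, and some of those of Pdk1, lie within 1 log2 unit of the floor. Pdk3 went the other way: it was 7.10 to 7.30 in BAT, close to the floor, and 7.51 to 7.77 in WAT, a difference of -0.49 ± 0.03, whose size is a lower bound because the BAT values lie so near the floor. On diet-averaged means, 7 of the 8 genes were thus higher in BAT, where 28.3% of all 14262 genes tested were, and 1 was lower, where 31.3% were; 59.6% of all genes differed at this threshold (limma, Benjamini-Hochberg adjusted p under 0.05). The values of the 2 tissues did not overlap for any of the 8 genes, which held for 21.4% of all genes. The highest limma adjusted p of the 8 was 3.0e-09, for Dld. The median difference was 1.48 over the 8 genes and 0.01 over all genes tested. In the BAT array with the lowest muscle marker mean, 7.82 in EPA/DHA array 3, Pdk4 was 13.54 and Pdha1 13.13, both above every WAT array. That is a single array, and the part of muscle in the tissue differences was not tested. Macrophage markers went the other way, with a mean of 7.56 to 8.03 in BAT (9 of 11 markers kept) and 8.84 to 9.42 in WAT (10 of 11 kept); their part in the tissue differences was not tested.

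In WAT, 3 of the 4 subunit genes and 1 of the 4 kinases were higher with EPA/DHA than with corn oil. Pdha1 was 11.51, 12.07, 11.77 and 11.58 in EPA/DHA arrays 1 to 4, against 11.02, 11.03, 11.22 and 11.02 in corn-oil arrays. The groups did not overlap, and the difference was 0.66 ± 0.12 (1.58-fold, adjusted p = 0.0221, limma). Pdhb was 10.23, 10.66, 10.51 and 10.45 in EPA/DHA arrays, against 9.43, 9.58, 9.94 and 9.62 in corn-oil arrays. Again every EPA/DHA array lay above every corn-oil array, with a difference of 0.82 ± 0.12 (1.76-fold, limma adjusted p = 0.0109). Dlat was 8.27, 8.30, 8.39 and 8.46 in EPA/DHA arrays, against 7.94, 7.97, 8.14 and 8.08 in corn-oil arrays. Its groups were apart by a smaller step, 0.32 ± 0.07 (1.25-fold, limma adjusted p = 0.0359). Among the kinases, Pdk1 was 8.05, 8.20, 8.13 and 8.10 in EPA/DHA arrays, against 7.67, 7.66, 7.64 and 7.86 in corn-oil arrays. Pdk1 was 0.42 ± 0.06 higher with no overlap (1.33-fold, limma adjusted p = 0.00842). Its corn-oil values lie within 1 log2 unit of the floor.

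The other 4 genes did not pass the test. Dld was 8.42, 8.91, 9.07 and 8.996 in EPA/DHA WAT, against 8.37, 8.16, 8.68 and 8.54 in corn-oil WAT, a difference of 0.41 ± 0.15 (limma adjusted p = 0.217) with overlapping groups. Pdk4 was 9.46, 11.79, 9.98 and 9.60 in EPA/DHA WAT, against 8.93, 9.59, 9.33 and 10.37 in corn-oil WAT. Its difference of 0.65 ± 0.47 (limma adjusted p = 0.587) was close in size to that of Pdha1, on a wider spread, and its interval ran from -0.38 to 1.68. Pdk2 differed by 0.14 ± 0.07 and Pdk3 by -0.09 ± 0.05. Thus 4 of the 8 genes were higher, where 1.18% of all 13349 genes tested were and 2.34% changed in either direction. The groups of these 4 did not overlap, as for 10.2% of all genes. The median difference was 0.41 over the 8 genes and 0.00 over all genes, and 7 of the 8 genes had a positive difference, as had 51.1% of all genes.

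**Figure D2:**
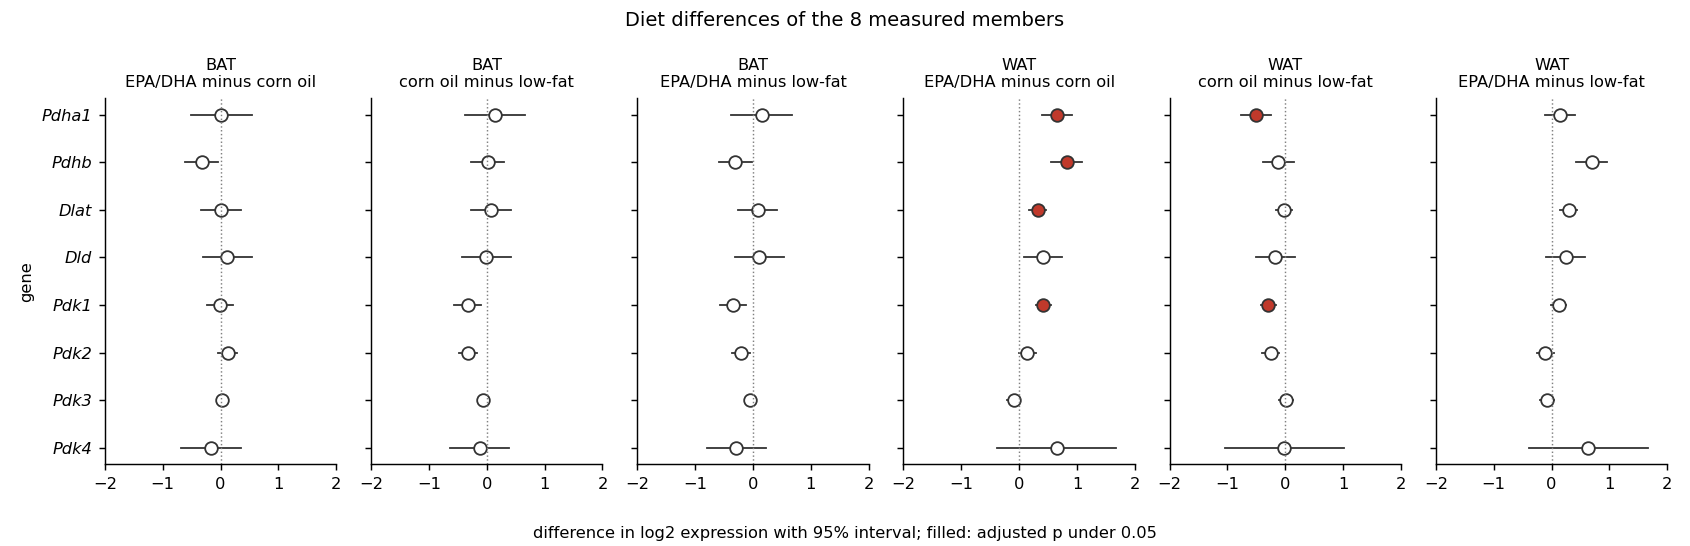
Differences in log2 expression of the 8 genes (rows) for the 3 diet comparisons in BAT (left 3 panels) and WAT (right 3 panels); points are estimates, lines 95% intervals, filled points an adjusted p under 0.05. Filled points stand only in WAT: Pdha1, Pdhb, Dlat and Pdk1 for EPA/DHA minus corn oil, and Pdha1 and Pdk1 for corn oil minus low-fat.

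The calls differed in how far they depended on single arrays. Pdhb and Pdk1 stayed past the threshold when any 1 of the 12 WAT arrays was left out. The Pdha1 call was lost without corn-oil array 1, 2 or 4 or EPA/DHA array 3 (limma adjusted p 0.0597, 0.0599, 0.0562 and 0.0643). That of Dlat was lost without low-fat array 3 (0.0529), corn-oil array 1, 2 or 4 (0.0900, 0.0927 and 0.0623) or EPA/DHA array 3 or 4 (0.0962 and 0.0956). All 4 genes kept a positive difference in each of these fits. In 1 fit over all 24 arrays Pdha1 had a limma adjusted p of 0.106 and with the array number as a block 0.0522, and Dlat 0.276 and 0.0600; neither gene passed in these 2 fits, while Pdhb and Pdk1 did.

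With corn oil against the low-fat diet, Pdha1 and Pdk1 fell in WAT, opposite to their difference between EPA/DHA and corn oil; both comparisons use the same corn-oil arrays. Pdha1 was 11.02 to 11.22 in corn-oil arrays, against 11.73, 11.60, 11.37 and 11.63 in low-fat arrays 1 to 4, and was 0.51 ± 0.12 lower with corn oil (limma adjusted p = 0.0460). Pdk1 was 7.64 to 7.86 in corn-oil arrays, against 8.12, 8.004, 7.89 and 7.98 in low-fat arrays, and was 0.29 ± 0.06 lower with corn oil (limma adjusted p = 0.0278). In both genes every corn-oil array lay below every low-fat array. Pdk2 was 7.44, 7.30, 7.31 and 7.42 in corn-oil arrays, against 7.53, 7.65, 7.55 and 7.73 in low-fat arrays. Although these 2 groups did not overlap, the difference of -0.25 ± 0.07 missed the threshold (limma adjusted p = 0.0767). In all, 2 of the 8 genes fell, where 1.82% of all genes fell and 3.87% changed in either direction. For 3 of the 8 the groups did not overlap, as for 12.4% of all genes. Pdhb (-0.12 ± 0.12), Dlat (-0.03 ± 0.07), Dld (-0.17 ± 0.15), Pdk3 (0.01 ± 0.05) and Pdk4 (-0.02 ± 0.47) did not pass. The median was -0.15 over the 8 genes and 0.00 over all genes.

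Both calls depended on single arrays and on the fit. The Pdha1 call held only when low-fat array 3, EPA/DHA array 1 or EPA/DHA array 2 was the one left out, and was lost without any of the other 9 arrays, with limma adjusted p up to 0.122 (without low-fat array 4). The Pdk1 call was lost without low-fat array 1, 2 or 4 or corn-oil array 1, 2 or 3, with values up to 0.0707 (without corn-oil array 1). Without EPA/DHA array 2, Pdk2 passed (limma adjusted p = 0.0475). Neither Pdha1 nor Pdk1 changed sign in any of the 12 fits. Neither gene passed in 1 fit over all 24 arrays (limma adjusted p = 0.254 for Pdha1 and 0.0802 for Pdk1) or with the array number as a block (0.0901 and 0.0585). With the liver or the macrophage marker mean as a covariate, Pdk1 passed and Pdha1 did not (limma adjusted p = 0.0622 and 0.0736).

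Between the EPA/DHA and low-fat diets in WAT, none of the 8 genes passed limma's adjusted threshold, as for nearly all genes: 0.03% of 13349 passed. The groups of 2 genes, Pdhb and Dlat, did not overlap, as for 4.66% of all genes. Both also had an unadjusted limma p under 0.05. Here and below, the share of all genes at that unadjusted threshold was not counted. Pdhb was 10.23 to 10.66 in EPA/DHA WAT and 9.98, 9.82, 9.61 and 9.66 in low-fat arrays 1 to 4, 0.69 ± 0.12 higher (limma adjusted p = 0.176). Dlat was 8.27 to 8.46 in EPA/DHA WAT and 8.22, 7.97, 8.03 and 8.01 in low-fat WAT, 0.30 ± 0.07 higher (limma adjusted p = 0.240). Pdha1 (0.15 ± 0.12) and Pdk1 (0.12 ± 0.06) had overlapping groups.

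Marker means of other cell types in WAT are set beside these results. No gene of the brown adipocyte (9 tested), macrophage (10), endothelial (10) or liver (11) marker lists passed between EPA/DHA and corn oil or between corn oil and low-fat, where 2.34% and 3.87% of all genes did. Of 11 tested skeletal muscle markers, 2 were lower with EPA/DHA than with corn oil and 2 higher with corn oil than with low-fat. The mean of these 11 was 7.38 to 7.62 in EPA/DHA WAT, 7.47 to 7.54 in corn-oil WAT and 7.45 to 7.62 in low-fat WAT. The part of muscle signal in the WAT results was not tested. The mean of 9 of 10 brown adipocyte markers was 8.17 to 9.67 in EPA/DHA WAT, 7.89 to 8.70 in corn-oil WAT and 7.90 to 8.36 in low-fat WAT. The mean of 10 endothelial markers was 9.30 to 9.39 in EPA/DHA WAT, below the 9.45 to 9.59 of corn-oil WAT, and 9.30 to 9.56 in low-fat WAT; its part in these results was not tested. Macrophage markers were 8.84 to 9.31 in EPA/DHA WAT, 9.13 to 9.42 in corn-oil WAT and 8.89 to 9.24 in low-fat WAT. With this mean as a covariate, Pdha1, Pdhb and Pdk1 passed for EPA/DHA against corn oil and Dlat did not (limma adjusted p = 0.0660). Between corn oil and low-fat, 2 marker means did not overlap. The mean of 7 mesothelial markers was 7.46 to 7.85 in EPA/DHA WAT, 7.38 to 7.70 in corn-oil WAT and 7.72 to 8.07 in low-fat WAT, and that of 9 white adipocyte markers was 9.55 to 9.85, 9.67 to 9.70 and 9.71 to 9.88 in the same order. Of the white adipocyte markers, 1 of 9 passed, Nnat, which was lower with corn oil (-1.20 ± 0.19, limma adjusted p = 0.0122). Their part in the Pdha1 and Pdk1 differences was not tested. A liver marker list varied most: the mean of 11 of its 13 markers was 10.87 ± 1.13 in EPA/DHA WAT, 11.79 ± 1.33 in corn-oil WAT and 11.43 ± 1.16 in low-fat WAT (SD), while Alb, the albumin gene, lay at the floor in WAT (7.02 to 7.13). With the liver mean as a covariate, Pdhb and Pdk1 passed, and Pdha1 (limma adjusted p = 0.0517) and Dlat (0.0738) did not.

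Ucp1 set 2 WAT arrays apart, and the same arrays carried the highest Pdk4 values. Ucp1 was 10.63 in EPA/DHA array 2 and 9.38 in corn-oil array 4, against 7.08 to 8.02 in the other 10 WAT arrays. Pdk4 was 11.79 and 10.37 in these 2 arrays and 8.93 to 9.98 in the others. The brown-fat genes Cidea (12.09 and 9.83, against 7.56 to 9.63) and Cox7a1 (11.06 and 9.60, against 7.81 to 8.99) were also highest there. Pdha1 was 12.07 in EPA/DHA array 2, its highest WAT value, and 11.02 in corn-oil array 4, within the range of its group. Without both arrays the SD of Pdk4 over WAT fell to 0.29 (n = 10), against 0.73 over all 12, and its difference between EPA/DHA and corn oil was 0.40 ± 0.19 (limma adjusted p = 0.434). In that smaller fit, 1 of the 4 calls for EPA/DHA against corn oil was kept: Pdk1 differed by 0.44 (limma adjusted p = 0.00955), Pdhb by 0.75 (0.0516), Pdha1 by 0.53 (0.0523) and Dlat by 0.36 (0.0821). With the brown marker mean as a covariate in all 12 arrays, Pdhb, Pdha1 and Pdk1 passed (limma adjusted p = 0.0277, 0.0399 and 0.0105) and Dlat did not (0.0767).

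**Figure D3:**
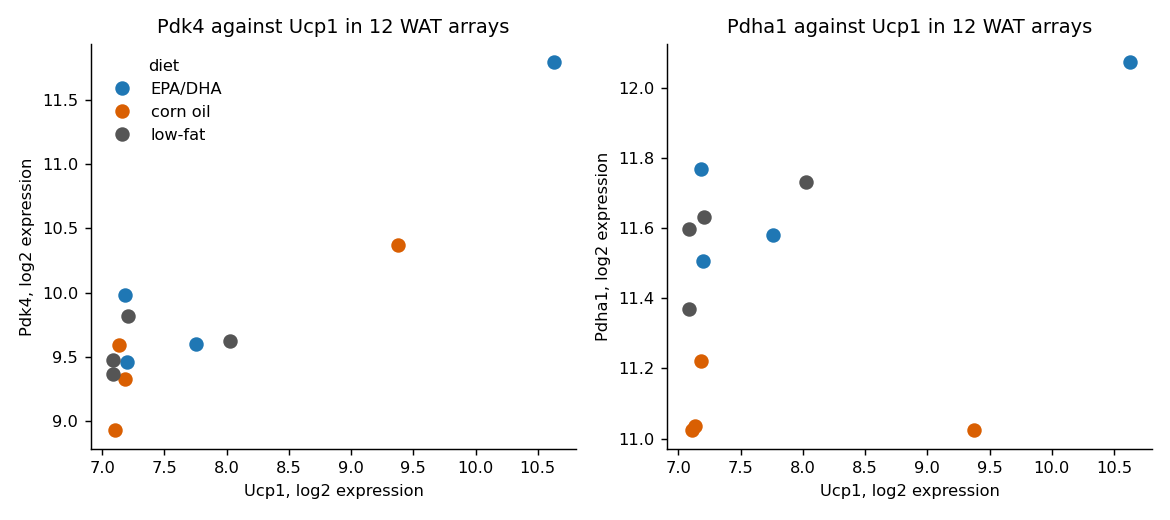
Log2 expression of Pdk4 (left) and Pdha1 (right) against that of Ucp1 in the 12 WAT arrays, 1 point per array, diets by colour. The arrays with Ucp1 at 10.63 (EPA/DHA) and 9.38 (corn oil) have the highest Pdk4 values, 11.79 and 10.37, while Pdha1 is 12.07, its highest WAT value, in the EPA/DHA one and 11.02 in the corn-oil one.

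In BAT no member passed for any diet comparison, and almost no gene did. For EPA/DHA against corn oil, 0 of the 8 genes and 0% of 13400 genes passed limma's adjusted threshold. Pdhb had an unadjusted limma p under 0.05, a threshold at which the share of all genes was not counted. Pdhb was 11.41, 12.004, 11.73 and 11.62 in EPA/DHA BAT, against 12.07, 11.82, 12.05 and 12.13 in corn-oil BAT, a difference of -0.33 ± 0.13 (limma adjusted p = 0.999). It was the reverse of the WAT direction, with overlapping groups. Pdha1 was 13.13 to 13.38 in EPA/DHA BAT and 13.21 to 13.46 in corn-oil BAT, a difference of 0.01 ± 0.24 with an interval from -0.52 to 0.54. Pdk4 was 13.01, 13.64, 13.54 and 13.06 in EPA/DHA BAT, against 13.30, 13.60, 13.07 and 13.93 in corn-oil BAT, a difference of -0.16 ± 0.23.

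For corn oil against the low-fat diet in BAT, 0 of the 8 genes and 0% of all genes passed, and Pdk1 and Pdk2 had an unadjusted p under 0.05. Pdk2 was 8.46, 8.49, 8.73 and 8.62 in corn-oil BAT, against 8.79, 8.94, 9.01 and 8.87 in low-fat BAT; the groups did not overlap, as for 5.15% of all genes, and the difference was -0.33 ± 0.07 (limma adjusted p = 0.233). Pdk1 was 9.15, 8.77, 8.88 and 8.89 in corn-oil BAT, against 9.24, 9.04, 9.42 and 9.32 in low-fat BAT, a difference of -0.33 ± 0.10 (limma adjusted p = 0.412). In WAT the same differences were -0.25 for Pdk2 and -0.29 for Pdk1. For EPA/DHA against low-fat BAT, 0 of the 8 genes passed, where 0.00746% of all genes did. Pdk1 (-0.35 ± 0.10), Pdk2 (-0.21 ± 0.07) and Pdhb (-0.31 ± 0.13) had limma adjusted p of 0.803, 0.912 and 0.966 there. Their unadjusted p was under 0.05, a threshold at which the share of all genes was not counted.

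The array that stood apart weighed on Pdha1, Dlat and Dld in BAT. In BAT low-fat array 2, Pdha1 was 12.21 against 13.42 to 13.53 in the other 3 low-fat arrays, Dlat 9.31 against 9.86 to 10.13, and Dld 9.13 against 9.89 to 10.27. Pdhb was 11.81 there, against 11.86 to 12.24, and its second probe was 11.09, within the 10.47 to 11.12 of the others. With this array, Pdha1 differed by 0.14 ± 0.24 between corn oil and low-fat. Without it, the difference was -0.17 ± 0.07 (limma adjusted p = 0.559). Over all genes tested, 2 passed for corn oil against low-fat without this array and 0 in each of the other BAT comparisons. None of the 8 genes passed in any of the 3 BAT comparisons without this array. Its muscle marker mean was 8.90, against 10.08 to 10.98 in the other low-fat arrays. With the muscle mean as a covariate in all 12 BAT arrays, Pdha1 differed between corn oil and low-fat by 0.003 ± 0.23, Dlat by 0.03 ± 0.17 and Dld by -0.10 ± 0.20. None of these passed, and 0 of all genes tested did. In that fit the Pdk2 difference was -0.32 ± 0.08 (limma adjusted p = 0.296).

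Of the 8 genes, Pdhb was the one whose diet difference differed between tissues. Its difference between EPA/DHA and corn oil was -0.33 in BAT and 0.82 in WAT, so BAT minus WAT was -1.14 ± 0.19 (limma adjusted p = 0.00708), and this passed in all 24 fits with 1 array left out. It was 1 of 8 genes. Of 14262 genes, 0.252% had a diet difference that differed between tissues in this comparison. For 0.0701% the diet difference was lower in BAT than in WAT. Pdk1 differed by -0.43 ± 0.12 (limma adjusted p = 0.254) and Pdha1 by -0.65 ± 0.28 (0.617), so that for these 2 a difference between tissues was not shown. For corn oil against low-fat, 0 of the 8 genes differed between tissues, where 0.652% of all genes passed limma's adjusted threshold. Pdha1 (0.65 ± 0.28) had an unadjusted limma p under 0.05, a threshold at which the share of all genes was not counted. Without BAT low-fat array 2 the Pdha1 value was 0.34 ± 0.15 (limma adjusted p = 0.417). For EPA/DHA against low-fat, 0 of the 8 genes passed, where 0.00701% of all genes did. Pdhb (-1.002 ± 0.19, limma adjusted p = 0.121) and Pdk1 (-0.47 ± 0.12, limma adjusted p = 0.337) had an unadjusted limma p under 0.05. Pdhb passed there without BAT EPA/DHA array 2 (limma adjusted p = 0.0413).

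The 3 Pdhb probes agreed in part. Values above are those of the brightest probe. The second probe was 8.92, 9.76, 9.13 and 9.44 in EPA/DHA WAT, against 8.70, 8.41, 8.998 and 8.66 in corn-oil WAT. It had the same direction with overlapping groups, 0.62 ± 0.18 (limma adjusted p = 0.121), and in BAT it differed by 0.09 ± 0.16, so that its difference between tissues, -0.53 ± 0.25, did not pass (limma adjusted p = 0.672). The dimmest probe was 7.64, 7.76, 7.68 and 7.68 in EPA/DHA WAT, 7.50, 7.61, 7.54 and 7.52 in corn-oil WAT and 7.79, 7.71, 7.63 and 7.74 in low-fat WAT. All of these lie within 1 log2 unit of the floor. It was 0.15 ± 0.04 higher with EPA/DHA than with corn oil (limma adjusted p = 0.0817) and 0.18 ± 0.04 lower with corn oil than with the low-fat diet (0.0371), a fall that the other probes did not show (-0.12 ± 0.12 and 0.10 ± 0.18). In BAT the dimmest probe was 8.53, 8.23, 8.48 and 8.44 with corn oil, against 8.07, 7.88, 8.14 and 8.12 with the low-fat diet, a difference of 0.37 ± 0.07 (limma adjusted p = 0.204) without overlap. Its diet differences differed between tissues for corn oil against low-fat (0.54 ± 0.08, limma adjusted p = 0.00203) and for EPA/DHA against corn oil (-0.39 ± 0.08, 0.0488). The second probe of Pdk1 lay near the floor, at 7.12 to 7.48 in BAT and 7.14 to 7.26 in WAT, and passed in no comparison. That of Dld was at the floor and was filtered out.

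**Figure D4:**
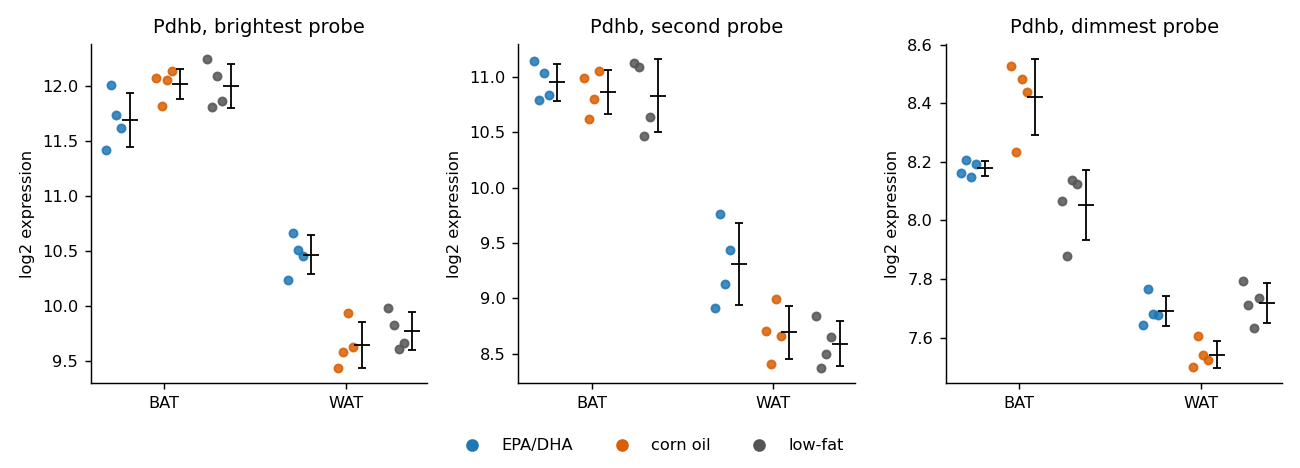
Log2 expression of the 3 Pdhb probes in every array, BAT left and WAT right, diets by colour; marks with bars are means ± SD of 4 arrays, and the 3 panels have their own scales. In WAT, EPA/DHA lies above corn oil in all 3 panels on average; in BAT the brightest probe has EPA/DHA lowest and the dimmest probe has corn oil highest.

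The members varied together to different degrees. Over the 12 WAT arrays, which share the diets, Pdha1 correlated with Pdk1 at r = 0.90, with Pdhb at 0.78, with Pdk2 at 0.68, with Dld at 0.64, with Dlat at 0.60 and with Pdk4 at 0.56, and with Pdk3 at -0.40. Over the 12 BAT arrays the values were 0.87 with Dld, 0.76 with Dlat, 0.48 with Pdk4, 0.21 with Pdhb and 0.14 with Pdk1, and array 2 of the low-fat group, low for Pdha1, Dlat and Dld alike, lies among them. Among the other genes, those with the highest r with Pdha1 in WAT were Ybx2 (0.95), Coq6, of ubiquinone synthesis (0.94), and Gpd2, the mitochondrial glycerol phosphate dehydrogenase (0.93), and the lowest was Tubb2b, a beta-tubulin (-0.93). In BAT they were Purb (0.98), Hspa9, a mitochondrial chaperone (0.96), and Rlim (0.95), with Tmem205 lowest (-0.96); without low-fat array 2 these were 0.83, 0.59, 0.70 and -0.60 (11 arrays). For Pdk4 they were Tuba8, an alpha-tubulin, and Fabp3, a fatty-acid-binding protein of muscle and brown fat, at 0.93 each, and Cpt1b, the muscle-type carnitine palmitoyltransferase (0.93), in WAT, with Gstm6 lowest (-0.89). Fabp3 was 9.50 and 8.35 in the 2 WAT arrays with high Ucp1 and 7.10 to 7.39 in the other 10. Without those 2 arrays the r with Pdk4 was 0.54 for Tuba8, 0.25 for Fabp3, 0.22 for Cpt1b and -0.50 for Gstm6 (10 arrays), so the likeness of Fabp3 and Cpt1b rests largely on them. In BAT they were Mia3 (0.93), Aifm2 (0.91) and Pcsk5 (0.88), with Ddah2 lowest (-0.91). These are descriptions over 12 arrays, picked from 13348 genes in WAT and 13399 in BAT.

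Genes around the complex were read against all genes tested, of which 1.18% were higher with EPA/DHA than with corn oil in WAT and 2.34% changed in either direction. For EPA/DHA against corn oil in WAT, 1 of 8 tested genes of related dehydrogenases passed: Bckdha, the branched-chain counterpart of Pdha1, was 0.55 ± 0.08 higher (limma adjusted p = 0.00990), with a list median of 0.30. Of 16 tested genes that make or use pyruvate, 3 were higher: Pcx, pyruvate carboxylase (0.58 ± 0.10), Pfkl, a phosphofructokinase (0.63 ± 0.12), and Ldhd, a D-lactate dehydrogenase (0.29 ± 0.05), with a list median of 0.18. Of 10 genes that handle acetyl-CoA, 1 passed, Crat, carnitine acetyltransferase (0.43 ± 0.09, limma adjusted p = 0.0477), while all 10 had a positive difference and the list median was 0.44. None passed among 3 other genes of the complex and its phosphatases (median 0.18), 5 cofactor genes (0.05), 19 PPAR and fasting genes (0.08) or 15 hypoxia genes (0.09). For comparison, the median over all genes was 0.00.

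For corn oil against the low-fat diet in WAT, 1.82% of all genes were lower and 3.87% changed in either direction. Bckdha was 0.49 ± 0.08 lower (1 of 8 related dehydrogenases, median -0.22). Gpt2, the mitochondrial alanine transaminase, was 0.57 ± 0.11 lower and Pfkp, another phosphofructokinase, 0.61 ± 0.13 higher (2 of 16 pyruvate genes, median -0.02). Ndrg1, a hypoxia-responsive gene, was 0.52 ± 0.10 lower (1 of 15, median -0.03). None passed among 10 acetyl-CoA genes (median -0.11), 3 other complex genes (-0.16), 5 cofactor genes (-0.03) or 19 PPAR and fasting genes (-0.01). In BAT no gene of these lists passed for any diet comparison, where 0% to 0.00746% of all 13400 genes tested did. The difference between tissues passed for Gpt2 (0.72 ± 0.16), 1 of 17 pyruvate genes tested. It also passed for Acot1, a PPAR-induced acyl-CoA thioesterase (-1.65 ± 0.37), 1 of 19 PPAR and fasting genes. Both were in corn oil against low-fat (limma adjusted p = 0.0494 and 0.0483), where 0.652% of all 14262 genes passed.

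Between tissues, 59.6% of all genes tested differed, 28.3% being higher in BAT and 31.3% lower, and the lists are read against these shares. Of 10 acetyl-CoA genes, 9 were higher in BAT and none was lower (median 1.47), among them Acss1, the mitochondrial acetyl-CoA synthetase (2.89 ± 0.09), Idh3a (1.85 ± 0.06) and Cs (1.69 ± 0.07), both of the citric acid cycle, and Crat (1.803 ± 0.053). Of 8 related dehydrogenase genes, 6 were higher and 1 lower (median 1.06), led by Ogdh (2.67 ± 0.06) and Dlst (2.16 ± 0.05) of the 2-oxoglutarate complex. Of the other complex genes, the phosphatase Pdp2 (1.99 ± 0.09) and the phosphatase regulator Pdpr (0.91 ± 0.07) were higher and Pdp1 (-0.05 ± 0.03) did not pass. Of 17 pyruvate genes, 9 were higher and 4 lower (median 0.17), with Pfkl (2.94 ± 0.07) and Gpt2 (-2.37 ± 0.07) at opposite ends. PPAR and fasting genes had 11 higher and 2 lower of 19 (median 0.33), among them Fabp3 (5.89 ± 0.22) and Cpt1b (4.64 ± 0.17). Hypoxia genes had 9 higher and 3 lower of 15 (median 0.24), and cofactor genes 3 higher and none lower of 6 (median 0.11). The list of fibroblast and progenitor markers had all 8 lower in BAT (median -1.45).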

How the data were processed

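The authors deposited log2 expression values per probe, made with lumi 2.18.0 per the submitters' processing notes. Whether the scale is plain or variance-stabilised log2 is not given in the sources used here, and the folds printed take it as plain. The sorted values of any 2 of the 24 arrays differed by at most 0.0069, so the values had been quantile normalised, and a change in total signal cannot be seen. Of 45281 probes, 34885 had 1 gene symbol, 18 several and 10378 none here; 34818 matched a RefSeq gene (GRCm38.p6). Probe sequences were not aligned. For each gene the probe that is brightest on average stands for it.

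Diets were compared within a tissue with limma 3.58.1 in R 4.3.3 (lmFit and eBayes, 12 arrays, 1 mean per diet, two-sided). Kept probes had a tissue mean above the 40th percentile (7.11), 27168 per tissue; all 8 genes' main probes passed. Comparisons between tissues drew on 29493 probes that passed in BAT or WAT, over 24 arrays. The p-values were adjusted by Benjamini-Hochberg over kept probes, with a threshold of 0.05. Marker means are over a list's kept members. The limma fit was tested on simulated data.

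Named are all 10 genes, up to 4 called members of each pathway list per comparison, the 3 genes most and the 1 least correlated with Pdk4 and with Pdha1 in each tissue, and defining markers. Alb, Pdp1, Acta1, Plin1, Hoxc8 and the brown adipocyte markers other than Ucp1 are named beside their lists. The genes and lists were chosen with earlier results of these data known. Alternatives covered filter, normalisation, prior, weights, probe choice, covariates and left-out arrays. No value column was left unmapped.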

Additional observations from a re-analysis of the deposited data

Results flagged for a closer look

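Within groups of 4 arrays, 72 groups of member probes were looked at for 1 array far from the other 3, and 4 were found, close to the about 1 in 20 that chance gives. Pdha1 in BAT low-fat array 2 was 12.21, against 13.42 to 13.53 in the other arrays of its group; this is also the array with the lowest agreement with its tissue. Pdha1 in WAT corn-oil array 3 was 11.22, against 11.02 to 11.03, a small step beside a tight group. Pdk1 in WAT corn-oil array 4, which also had Ucp1 at 9.38, was 7.86, against 7.64 to 7.67. Pdk3 in WAT low-fat array 4 was 7.51, against 7.72 to 7.75.

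A diet difference that differed between BAT and WAT by the interaction test was found for Pdhb. For its brightest probe, EPA/DHA minus corn oil in BAT less that in WAT was -1.14. For its dimmest probe the same difference was -0.39, and that of corn oil minus low-fat was 0.54. The second probe passed in neither comparison, and the brightest probe did not pass for corn oil minus low-fat.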

How the results depend on the processing

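All 8 tissue differences, and the Pdhb difference between tissues for EPA/DHA against corn oil, kept direction and threshold in every alternative run, and no called difference of a member reversed. For corn oil against low-fat WAT, 2 members passed, against 1 with no filter, 1 with the liver or with the macrophage covariate, 0 in 1 fit over 24 arrays, and 0 with the replicate block; leaving out 1 array gave 0 to 3. For EPA/DHA against corn oil in WAT, 4 passed, against 2 in the 24-array fit (in which BAT arrays share the spread), 2 with the liver covariate, 2 with the replicate block and 1 without the 2 WAT arrays with Ucp1 above 9, a setting chosen after seeing the data like the brown marker covariate (3 passed); leaving out 1 array gave 2 to 4. For EPA/DHA against low-fat WAT the trended prior gave 1 (Pdhb, limma adjusted p = 0.0255) in place of 0. In BAT, corn oil against low-fat gave 1 (Pdk2, limma adjusted p = 0.0398) in the 24-array fit in place of 0. The tissue difference of EPA/DHA against low-fat gave 1 (Pdhb, limma adjusted p = 0.0462) with the replicate block in place of 0; leaving out 1 array gave 0 to 1. The trended prior also passed Pdk2 for corn oil against low-fat WAT (limma adjusted p = 0.0254). Fits with fewer arrays, or with no filter and so more probes, differ by construction; otherwise the cause was not tested. Over all probes, calls ran from 266 to 958 for corn oil against low-fat WAT (797 in the fit reported) and from 175 to 649 for EPA/DHA against corn oil in WAT (477). Same-numbered WAT arrays of different diets deviated together in 7 of 12 pairs, same-numbered BAT arrays in 5 of 12, and BAT and WAT arrays of 1 diet and number in 0 of 4 in each diet (r over 0.1). Between diets in WAT, the mean r was 0.17 for same-numbered pairs and -0.06 for other pairs, and in BAT 0.03 and -0.01. The fits reported did not use the numbers as pairs. What same-numbered WAT arrays share was not tested, so the results with the replicate block stand beside them.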
